A study of Mus musculus with 12 samples.

Results

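Regulatory T cells (Tregs) from perigonadal fat of mice lacking T-bet in Foxp3-expressing cells were set against fat Tregs of control mice. T-bet is encoded by Tbx21. The comparison took in every fat array of the study, 6 of 12, namely 3 T-bet knockout arrays and 3 control arrays. Knockout mice carried a floxed Tbx21 allele together with Foxp3-YFP-Cre, and control mice carried Foxp3-YFP-Cre alone, so the Cre and its reporter were present in both groups. All were C57BL/6 mice fed chow, and the other 6 arrays held spleen Tregs of the same genotypes. Cre follows Foxp3 in this design, so the deletion is restricted to cells that express Foxp3 or did so earlier. The labels give neither the age of the mice nor the number of animals behind each array, so the p-values below measure only the spread between arrays, part of which may be technical. RNA was amplified from a very small input, which the labels give in picograms, a unit that could not be checked.

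T-bet is a T-box transcription factor that directs type 1 immunity in T cells and switches on genes such as the chemokine receptor Cxcr3 and the cytokine Ifng. In Tregs it is known for a Cxcr3-bearing subset that accompanies type 1 inflammation. Tregs of visceral fat form a resident population that depends on Pparg, responds to interleukin 33 and expresses genes of lipid handling beside the general Treg program.

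Expression was measured on bead arrays with 45281 probes. Values are log2 intensities after background correction and quantile normalization, and a difference is the T-bet knockout mean minus the control mean with its standard error (SE), from 3 arrays each. Between 31.0 and 34.8% of probes were detected on the T-bet knockout fat arrays, against 31.3 to 37.9% on the control fat arrays. A probe entered the comparison if detected in at least 3 of the 6 fat arrays, which left 15544 probes and 8175 genes, each gene represented by its brightest probe. By their brightest probes the T cell markers Cd3d, Cd3e, Cd3g, Cd4 and Cd2 were detected in all 6 fat arrays. So were the Treg markers Foxp3, Il2ra, Ctla4 and Ikzf2 and the cytokine Il10. The T cell marker Cd5 was detected in only 2 of 3 T-bet knockout arrays and 2 of 3 control arrays. Arrays of the same genotype correlated at 0.805 to 0.826 among T-bet knockouts and at 0.753 to 0.831 among controls, where control arrays 2 and 3 gave the lowest value. The corresponding ranges in spleen were 0.891 to 0.914 for T-bet knockouts and 0.873 to 0.913 for controls. Each of 3 slides held 1 array of every group, with the replicate number standing for the slide, and on every slide the knockout array had the same letter, so genotype and place on the slide cannot be told apart. Because the samples are bulk RNA, a lower level can mean fewer cells of a type or less RNA per cell, which cannot be told apart.

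No probe passed the test between T-bet knockout and control fat Tregs. limma called 0 of 15544 probes (0%) at an adjusted p below 0.05, and the smallest adjusted p was 0.827. A fit to all 12 arrays with a shared spread called 2, Slc10a7 and 1 probe with no gene symbol. At an unadjusted p below 0.05 stood 364 probes higher in T-bet knockouts (2.34%) and 361 lower (2.32%), in all 725 (4.66%) where a flat distribution of p-values gives 5%. Counted by gene, the background against which the gene lists below are read was 194 of 8175 genes higher (2.37%) and 198 lower (2.42%) at an unadjusted p below 0.05. All 3 T-bet knockout arrays lay above all 3 control arrays for 375 genes (4.59%) and below them for 336 (4.11%). The difference was above 0 for 50.8% of genes and below 0 for 49.2%. The median 95% interval of a probe's difference reached 1.19 log2 units to either side. That interval is not adjusted for the number of probes, so larger changes could also go uncalled. The largest gene difference, 3.14 for Spred2, had a limma adjusted p of 0.827.

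The differences on the 3 slides showed almost no correlation with each other across probes. Slide 1 correlated with slide 2 at −0.020 and with slide 3 at 0.028, and slides 2 and 3 at 0.0064, over the 15544 probes, which are not independent of one another. Their standard deviation across probes was 0.991, 1.15 and 1.11 for slides 1, 2 and 3. Over genes, 88.3% of differences lay within 1 log2 unit, and 65 reached 2 units, of which 29 were higher and 36 lower in T-bet knockouts.

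**Figure D1:**
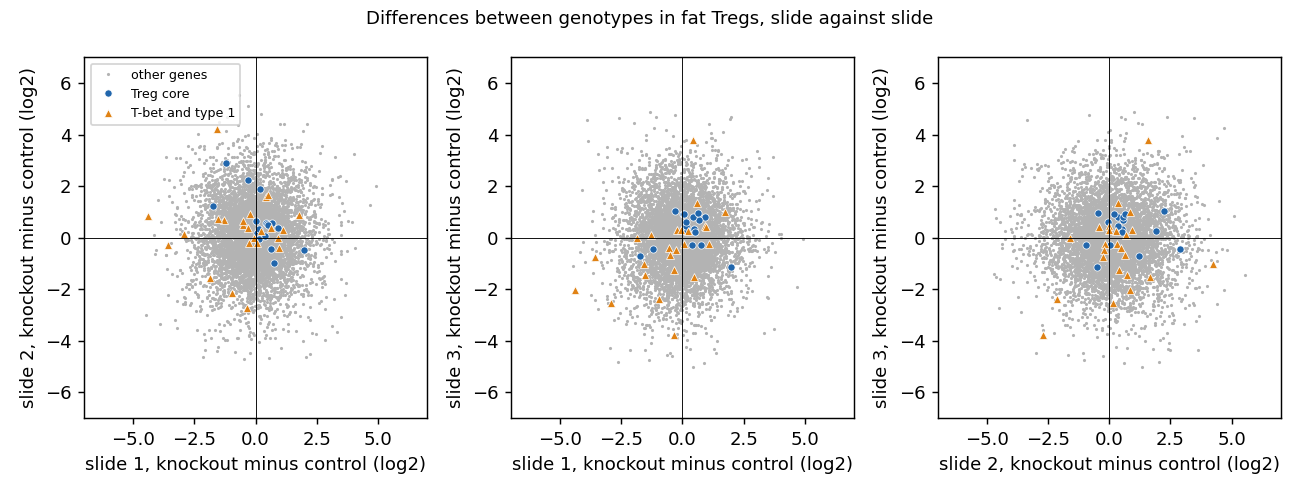
Log2 difference of T-bet knockout minus control fat Tregs on one slide (horizontal axis) against that on another (vertical axis), with 1 point for each of 8175 genes, core Treg genes as blue circles and T-bet and type 1 genes as orange triangles. The grey clouds of all genes are round (over all kept probes the correlations are −0.020, 0.028 and 0.0064), and 9 of the 17 blue circles are above 0 on every slide.

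No difference was detectable in Tbx21, the gene targeted in the knockout. Its probe read 6.59, 7.54 and 4.93 in T-bet knockout arrays 1, 2 and 3, against 5.48, 7.24 and 5.16 in control arrays 1, 2 and 3. It was detected in 2 of 3 T-bet knockout arrays and in 2 of 3 control arrays, and in both groups the array on slide 3 was the lowest. The difference was 0.39 (SE 0.80, 95% interval −1.48 to 2.27, limma adjusted p = 1). Without T-bet knockout array 2 it became −0.20. Where this probe lies relative to the floxed part of Tbx21 is not given in the sources used here, and a probe outside the deleted part checks neither the deletion nor the labels.

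Genes of the T-bet and type 1 program were split between the directions. Of 28 listed genes 24 were measured, 11 of them higher and 13 lower in T-bet knockouts, with a median difference of −0.13 beside 0.01 over all genes. Over the alternative settings that median ran from −0.33 to 0.16. The adjusted test called 0 of the 24. An unadjusted p below 0.05 was reached by 2 higher members, Gzmb and Eomes, beside 2.37% of all genes. It was also reached by 2 lower ones, Tnf and Cxcr3, beside 2.42% of all genes. The 24 genes include Tnf, which passed the filter through the control arrays alone.

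The promoters of these 4 genes are shown because T-bet binds DNA through a T-box element. The windows are RefSeq sequence of GRCm38.p6, 250 bases before to 50 bases after the annotated start, in the direction of transcription, with the 6-letter core GTGTGA or its reverse complement TCACAC in capitals.
Cxcr3, chrX:101734098-101734397, minus strand: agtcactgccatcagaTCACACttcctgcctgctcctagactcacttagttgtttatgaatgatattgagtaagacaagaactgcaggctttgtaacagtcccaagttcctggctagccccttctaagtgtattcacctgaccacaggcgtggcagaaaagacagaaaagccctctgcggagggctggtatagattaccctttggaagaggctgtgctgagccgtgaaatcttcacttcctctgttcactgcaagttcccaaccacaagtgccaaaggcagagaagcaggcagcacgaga
Gzmb, chr14:56262285-56262584, minus strand: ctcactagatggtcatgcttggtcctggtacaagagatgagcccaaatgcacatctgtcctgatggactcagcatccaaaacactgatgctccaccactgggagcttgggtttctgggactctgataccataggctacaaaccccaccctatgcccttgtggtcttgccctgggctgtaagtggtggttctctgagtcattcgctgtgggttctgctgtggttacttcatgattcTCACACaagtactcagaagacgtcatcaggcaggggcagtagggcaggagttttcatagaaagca
Eomes, chr9:118477939-118478238, plus strand: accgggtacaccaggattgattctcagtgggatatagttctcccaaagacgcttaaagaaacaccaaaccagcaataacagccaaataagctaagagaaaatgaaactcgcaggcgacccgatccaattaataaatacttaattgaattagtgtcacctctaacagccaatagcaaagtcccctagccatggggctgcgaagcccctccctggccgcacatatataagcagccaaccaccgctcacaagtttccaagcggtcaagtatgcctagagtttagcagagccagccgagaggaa
Tnf, chr17:35201958-35202257, minus strand: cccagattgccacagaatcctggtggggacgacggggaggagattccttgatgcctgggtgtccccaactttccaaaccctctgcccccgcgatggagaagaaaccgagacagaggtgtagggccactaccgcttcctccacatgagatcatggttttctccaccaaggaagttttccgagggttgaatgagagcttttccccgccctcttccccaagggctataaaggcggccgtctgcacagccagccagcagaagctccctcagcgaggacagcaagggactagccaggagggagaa
The core occurs once in the Cxcr3 window, beginning at position −234 from the annotated start, and once in the Gzmb window, at position −15. It is not found in the Eomes and Tnf windows, and the longer element GGTGTGA or TCACACC, which contains the core, is in none of the 4. Over all 32851 RefSeq windows 14.49% hold the core and 3.98% the longer element. Among the 8465 windows of measured genes the shares are 10.9% and 3.13%. Of the 19 type 1 members with a window 5 hold the core in any of their windows. That is a count by gene, unlike the shares by window. A match of letters is a description of the window, not a binding site.

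Cxcr3, the chemokine receptor of type 1 T cells, read 4.47, 6.46 and 5.32 in T-bet knockout arrays 1, 2 and 3, against 7.39, 6.32 and 7.85 in control arrays 1, 2 and 3. It was lower in T-bet knockouts on slides 1 and 3 and close to the control on slide 2, so the groups overlapped. The difference was −1.77 (SE 0.63, limma unadjusted p = 0.0245, adjusted p = 0.981). Spleen Tregs read 4.5, 7.23 and 4.94 in T-bet knockouts against 7.22, 5.48 and 7.66 in controls. There too the knockout was lower on slides 1 and 3, but on slide 2 it was clearly higher. The difference between the tissues' knockout effects was −0.54 (SE 1.12, limma adjusted p = 0.999).

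Tnf, the inflammatory cytokine, was not detected in any T-bet knockout fat array (4.51, 4.59 and 4.49) and was detected in all 3 controls (5.46, 6.73 and 6.88). The groups did not overlap. Against the lowest detected signal of the T-bet knockout arrays it was at least 2.4-fold lower, with limma's unadjusted p at 0.00502 and adjusted p at 0.919. A second Tnf probe was also detected in the 3 control arrays and in no T-bet knockout array. Both Tnf probes passed the filter through the control arrays alone, so the filter set their direction.

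Gzmb, the serine protease of cytotoxic granules, read 7.57, 6.68 and 7.54 in T-bet knockout arrays, against 5.80, 5.81 and 6.53 in control arrays. Every T-bet knockout array lay above every control array, with a difference of 1.21 (SE 0.43). Eomes, the T-box factor most closely related to T-bet, read 5.56, 6.85 and 8.34 in T-bet knockouts, against 5.13, 5.27 and 4.57 in controls. The groups did not overlap here either, the spread among T-bet knockout arrays was wide, and the difference was 1.93 (SE 0.69). Neither gene passed the adjusted test (limma adjusted p = 0.981 for both).

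The type 1 cytokine and the chemokines varied by several log2 units within a genotype. Ifng read 4.60, 6.88 and 7.43 in T-bet knockouts, against 8.17, 7.15 and 8.17 in controls, a difference of −1.53 (SE 0.76) with lower values in T-bet knockouts on every slide. A second Ifng probe gave −3.17 (limma unadjusted p = 0.000644, adjusted p = 0.827) and was detected in 1 of 3 T-bet knockout arrays and in all 3 controls. Ccl3, an inflammatory chemokine, read 4.74, 4.83 and 5.99 in T-bet knockouts, against 5.07, 7.55 and 9.75 in controls. Ccl4, a related chemokine, read 5.42, 8.98 and 9.31 in T-bet knockouts, against 9.82, 8.13 and 11.33 in controls, and on slide 2 the knockout array was the higher one. Both chemokine differences (−2.27, SE 1.08, and −1.86, SE 1.18) were smaller than the range within the control group. Stat4, which transmits interleukin 12 signals, read 9.24, 9.10 and 8.98 in T-bet knockouts, against 9.50, 9.32 and 9.45 in controls. Those groups were close but separate, with a difference of −0.32. Il12rb2, a subunit of the interleukin 12 receptor, read 4.53, 8.57 and 4.55 in T-bet knockouts, against 6.10, 4.34 and 5.56 in controls, so its difference of 0.55 came from a single T-bet knockout array.

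**Figure D2:**
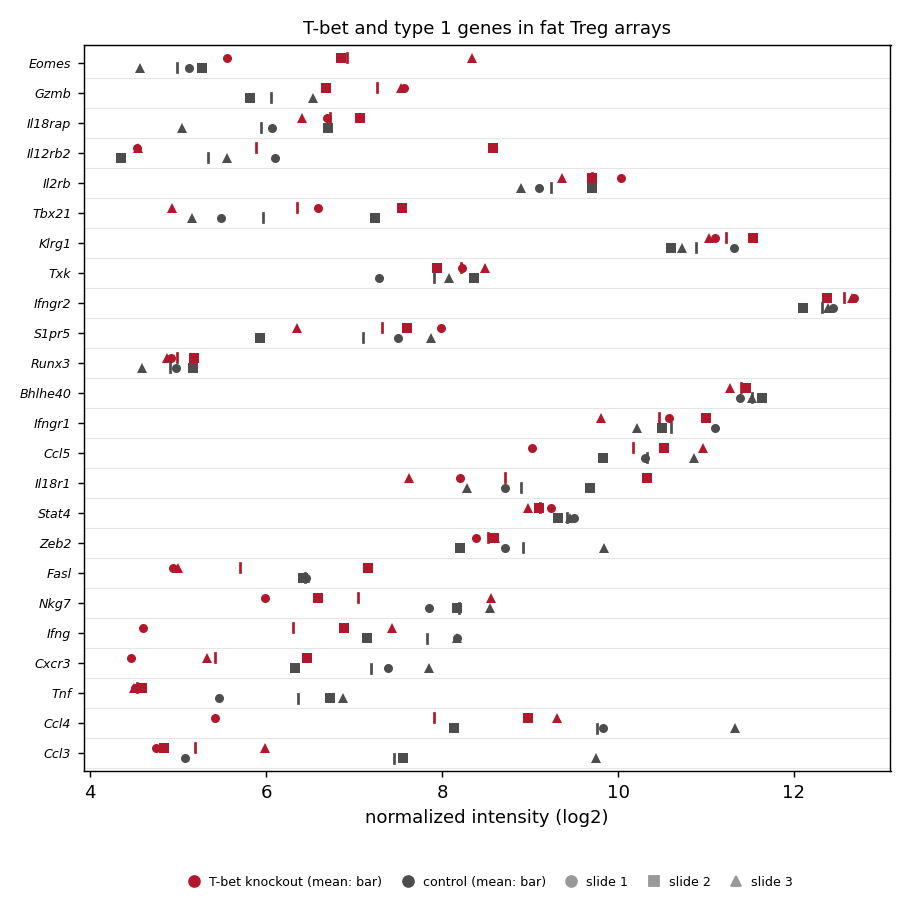
Log2 intensity of T-bet and type 1 genes in each fat array, the T-bet knockout row above the control row for each gene, with a symbol for each slide and a bar at each group mean. Tnf and Stat4 lie lower and Gzmb and Eomes higher in every T-bet knockout array, while the Tbx21 groups overlap.

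Genes of the core Treg program were mostly higher in T-bet knockout fat Tregs, by small amounts. Of 21 listed genes 18 were on the array and 17 were measured, and 15 of the 17 had a difference above 0, beside 50.8% of all genes. The median difference was 0.41, and the slide medians were 0.38, 0.51 and 0.47. For 7 members every T-bet knockout array lay above every control array, beside 4.59% of all genes, and for none did it lie below. On each of the 3 slides 9 members were higher in the knockout, beside 12.6% of all genes, and none was lower on all slides. These counts include Izumo1r, which passed the filter through the knockout arrays alone, so its direction was set by the filter. No member passed the adjusted test or reached an unadjusted p below 0.05 by its brightest probe. The lowest member, Nrp1, differed by −0.41, and its other probes gave −0.16 and −2.14 (limma unadjusted p = 0.0236, adjusted p = 0.981 for the last). That last probe was detected in all 3 controls and in no T-bet knockout array, so its direction was set by the filter. The summed intensity of the list was 13091 to 14076 in T-bet knockout arrays and 9298 to 11044 in control arrays. Members above 0 numbered 12 to 16 under the alternative settings, the 12 being of 14 members detected in all 6 fat arrays, and the median stayed between 0.30 and 0.51. Among the members' further probes 13 of 17 had the sign of the main probe, beside 59.55% over all genes. In spleen the median of the same list was 0.06.

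Foxp3, which defines the lineage, read 8.68, 9.07 and 9.20 in T-bet knockout arrays, against 8.49, 7.17 and 8.95 in control arrays. The knockout array was the higher one on each slide, control array 2 lay far below the rest, and the difference was 0.78 (SE 0.52). Its probes disagreed, since the other probes gave −0.83 and −0.22. Ikzf2, the transcription factor Helios, read 8.52, 8.92 and 9.48 in T-bet knockouts, against 8.83, 6.69 and 8.44 in controls, a difference of 0.99 (SE 0.62). Control array 2 was again the lowest, but on slide 1 the knockout array lay below its control.

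The inhibitory receptors and the receptors of the tumour necrosis factor family were tighter. Ctla4, the inhibitory receptor that competes with CD28 for its ligands, read 11.28, 11.38 and 11.22 in T-bet knockouts, against 10.86, 10.83 and 10.40 in controls, a difference of 0.60 (SE 0.35). Tigit, an inhibitory receptor for CD155, read 10.37, 10.44 and 10.78 in T-bet knockouts, against 10.36, 9.80 and 9.87 in controls. Tnfrsf4, which encodes OX40, read 11.25, 11.08 and 10.89 in T-bet knockouts, against 10.75, 10.57 and 10.67 in controls. In all of these the groups stood apart, Tigit only narrowly. Tnfrsf9, which encodes 4-1BB, read 10.35, 10.31 and 9.95 in T-bet knockouts, against 9.87, 9.77 and 9.62 in controls. Tnfrsf18, which encodes GITR, read 10.12, 10.45 and 10.27 in T-bet knockouts, against 9.96, 10.09 and 9.81 in controls. These receptors differed by 0.33 to 0.60 and were separate between the groups, Tnfrsf18 only narrowly. The other Tnfrsf9 probes gave 0.30 and −0.13. Swap70, an adaptor of actin-based signalling, differed by 0.65 and also did not overlap, but 1 of its other probes gave −0.26. Izumo1r, the folate receptor 4 of Tregs, was detected in all 3 T-bet knockout arrays (5.57, 5.16 and 5.49) and in no control array (4.66, 4.79 and 4.71), at least 1.3-fold higher, and it passed the filter through the knockout arrays alone. Il2ra, the high-affinity interleukin 2 receptor chain, overlapped, with 8.13, 7.60 and 7.76 in T-bet knockouts against 7.50, 8.05 and 6.81 in controls.

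**Figure D3:**
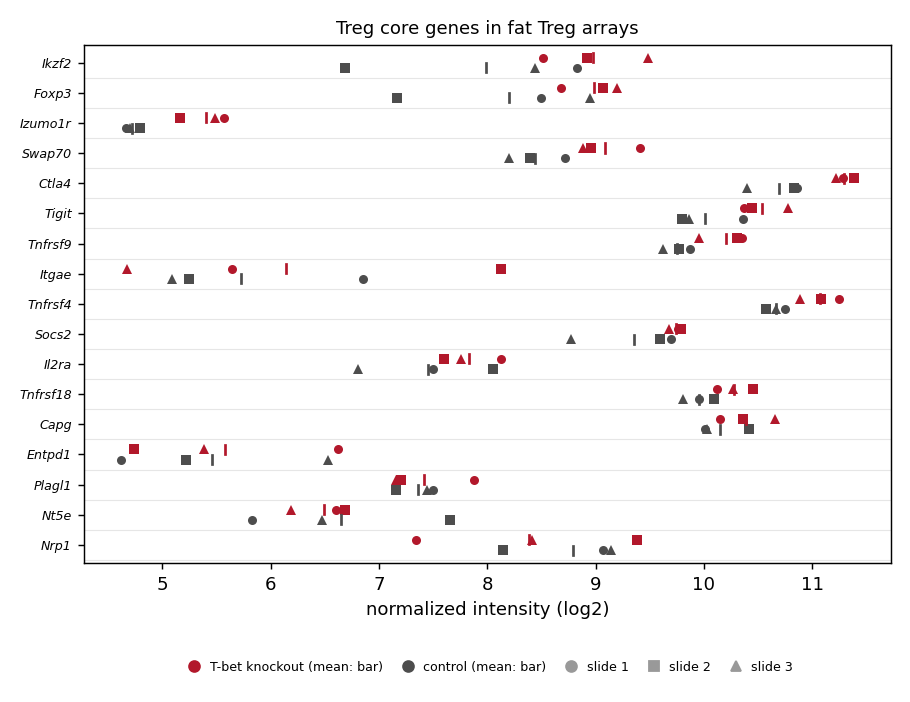
Log2 intensity of core Treg genes in each fat array, the T-bet knockout row above the control row for each gene, with a symbol for each slide and a bar at each group mean. Ctla4, Tigit, Tnfrsf4, Tnfrsf9 and Tnfrsf18 are higher in every T-bet knockout array, and Foxp3 and Ikzf2 have 1 low control array.

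Lists that share members with the core program had the same direction. Of 15 measured Treg effector molecules 11 were above 0, beside 50.8% of all genes, with a median of 0.27. Non-overlapping above were 5, Lgals1, Tnfrsf9, Ctla4, Fgl2 and Gzmb, beside 4.59% of all genes. The list's other probes had the sign of the main probe in 2 of 4, beside 59.55% over all genes. Fgl2, a secreted suppressor of T cells, read 9.87, 10.13 and 9.94 in T-bet knockouts, against 9.54, 9.25 and 8.82 in controls, a difference of 0.78 (SE 0.37). Fgl2 stood apart between the groups, and in spleen its difference was 0.81. Il10, the suppressive cytokine, read 10.81, 10.83 and 10.47 in T-bet knockouts, against 10.13, 9.78 and 10.58 in controls, and the groups overlapped through control array 3.

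Of 22 measured activation and checkpoint genes 17 were above 0, beside 50.8% of all genes. Their median was 0.38, with slide medians of 0.07, 0.47 and 0.40. Non-overlapping above were 7 members, beside 4.59% of all genes. They were the 5 receptors above and the transcription factors Batf and Irf4, which act together in effector Treg differentiation. Batf read 11.02, 10.80 and 10.88 in T-bet knockouts, against 10.29, 9.72 and 10.09 in controls, a difference of 0.87 (SE 0.35, limma unadjusted p = 0.0418, adjusted p = 1). Irf4 read 8.40, 8.04 and 8.36 in T-bet knockouts, against 7.81, 7.31 and 7.78 in controls, a difference of 0.64. Both were tight within each group. Cd83, a surface molecule of activated lymphocytes and dendritic cells, ran against the list with a difference of −1.24.

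RNA of other cells was present in these arrays and differed between them. Of 17 measured macrophage and monocyte markers 3 were above 0 and 14 below, with a median of −0.34 and slide medians of −0.72, 1.05 and −1.70. Their summed intensity was 6540 to 11748 in T-bet knockout arrays and 6134 to 22110 in control arrays, and was highest in control array 3. Without that array 12 of the 17 were above 0 and the median was 0.25. Cd163, a scavenger receptor of tissue macrophages, read 8.02, 10.69 and 9.82 in T-bet knockouts, against 9.39, 10.35 and 11.54 in controls. Adgre1, an adhesion receptor on mature macrophages, read 8.56, 9.42 and 8.62 in T-bet knockouts, against 9.11, 5.64 and 10.74 in controls. Control array 3 was the highest of the 6 for both genes, and control array 2 was far below the rest for Adgre1. The median of the macrophage markers was above 0 on slide 2 and below 0 on slides 1 and 3. The median of the core Treg list was above 0 on all 3 slides. Without control array 3 the core list had 15 of 17 members above 0 and a median of 0.38. Whether RNA of macrophages or other cells has a part in the shift of the Treg lists was not tested.

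The remaining marker lists had 2 to 10 measured members. Of 10 measured CD8 and NK cell genes 3 were above 0, with a median of −0.22, and Cd8b1, a chain of the CD8 coreceptor, read 7.79, 8.89 and 7.96 in T-bet knockouts against 6.80, 6.46 and 7.32 in controls, while its second probe gave −0.52 and Cd8a differed by −0.24. Of 7 measured dendritic cell genes 1 was above 0, with a median of −0.56, and Itgax, which encodes CD11c, differed by −1.55. The B cell genes Ms4a1 and Pax5 were undetected, and the list's 3 measured members summed to 268 to 383 in T-bet knockout arrays and 212 to 659 in control arrays. Cpa3, the carboxypeptidase of mast cells, was detected in no T-bet knockout array (4.39, 4.85 and 4.75) and in all 3 controls (6.66, 5.42 and 6.74), at least 2.2-fold lower, and its second probe was likewise detected in the 3 controls alone. Hs3st1, listed for group 2 innate lymphoid cells, was likewise detected in controls alone, at least 1.8-fold lower. Both Cpa3 probes and the Hs3st1 probe passed the filter through the control arrays alone, so the filter set their direction. The antigen presentation gene H2-Eb1, a class II chain, read 8.21, 9.06 and 10.27 in T-bet knockouts, against 9.95, 11.16 and 11.16 in controls, a difference of −1.58 (SE 0.62), while the median of the 11 measured genes of that list was 0.03.

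Genes that mark the adipose Treg population were largely above 0 as well. Of 23 measured members 18 were above 0, beside 50.8% of all genes, with a median of 0.29 and slide medians of 0.12, 0.58 and 0.31. Non-overlapping were 3 above, beside 4.59% of all genes, and 1 below, beside 4.11%. Pparg, the nuclear receptor that the population depends on, read 8.89, 8.09 and 8.80 in T-bet knockouts, against 8.48, 8.01 and 8.26 in controls, and the groups overlapped. Lpl, which releases fatty acids from lipoproteins, read 8.45, 10.09 and 10.52 in T-bet knockouts, against 9.33, 8.81 and 9.15 in controls. Cd36, the fatty acid translocase, read 9.11, 8.88 and 9.57 in T-bet knockouts, against 9.20, 8.47 and 10.76 in controls. No difference in Pparg, Lpl or Cd36 exceeded the spread of their arrays. Dgat2, an enzyme of triglyceride synthesis, read 7.62, 7.92 and 7.83 in T-bet knockouts, against 8.57, 8.85 and 8.11 in controls, and its groups did not overlap, with a difference of −0.72. Klrg1, a lectin receptor of terminally differentiated Tregs, differed by 0.34, Cxcr6 by 0.05 and Gata3, the type 2 factor that tissue Tregs also use, by −0.21.

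Type 2 genes were divided evenly, 6 above and 6 below 0 of 12 measured, with a median of 0.01. Il5, the eosinophil growth factor, read 12.11, 12.05 and 10.96 in T-bet knockouts, against 11.99, 12.49 and 11.25 in controls, and Il13 differed by −0.10. Hdc, the enzyme that makes histamine, read 11.01, 11.90 and 10.16 in T-bet knockouts, against 12.11, 12.52 and 11.70 in controls, lower on every slide, with a difference of −1.09 (SE 0.52), and a second Hdc probe gave −2.24 (limma unadjusted p = 0.0327, adjusted p = 0.981). Of 6 measured type 17 genes 4 were above 0, with a median of 0.19. Ccr6, the chemokine receptor of type 17 cells, read 4.72, 7.54 and 4.52 in T-bet knockouts, against 8.30, 9.75 and 6.91 in controls. It was lower on every slide, with a difference of −2.73 (SE 0.99, limma unadjusted p = 0.0265, adjusted p = 0.981), but the groups overlapped and a second Ccr6 probe gave −0.37.

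Among 21 measured homing genes 13 were above 0, beside 50.8% of all genes, and the adjusted test called 0. The 3 at an unadjusted p below 0.05 were lower, Ccr6, Cxcr3 and Ccr7, beside 2.42% of all genes. Ccr7, the receptor that guides lymphocytes to lymph nodes, read 7.15, 6.26 and 7.76 in T-bet knockouts, against 8.27, 8.26 and 8.25 in controls. The control arrays were nearly equal and all T-bet knockout arrays lay below them, with a difference of −1.20 (SE 0.46, limma unadjusted p = 0.0322, adjusted p = 0.981). Genes of resting lymphoid Tregs, a list that holds Ccr7, had 3 of 12 measured members above 0 and a median of −0.34, but slide medians of −0.02, 0.02 and −0.51. Lef1 and Satb1, transcription factors of naive T cells, differed by −0.57 and −0.55, and Id3, an inhibitor of E proteins, by 0.65 in the other direction.

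Interferon response genes had a median of 0.52, with 10 of 16 measured above 0, yet the slide medians were 0.92, 0.46 and −0.00. Igtp, an immunity-related GTPase induced by interferon gamma, read 9.71, 10.03 and 9.21 in T-bet knockouts, against 8.76, 8.23 and 8.33 in controls, without overlap and with a difference of 1.21 (SE 0.39). Gbp2, a guanylate-binding protein, read 9.53, 8.34 and 8.17 in T-bet knockouts, against 6.82, 6.64 and 8.23 in controls, and its other probes gave 1.17 and −0.03. Ddx58, the sensor RIG-I, ran the other way with 4.53, 5.77 and 4.83 in T-bet knockouts against 6.03, 9.13 and 5.89 in controls.

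Immediate early and stress genes were mostly lower, 19 of 25 below 0 beside 49.2% of all genes, with a median of −0.13. Egr3, a zinc finger factor induced by antigen receptor signals, read 6.91, 8.44 and 7.27 in T-bet knockouts, against 8.64, 9.0 and 8.70 in controls, a difference of −1.24 (SE 0.48). Egr2, its relative, read 8.01, 8.90 and 9.07 in T-bet knockouts, against 9.13, 9.19 and 10.80 in controls. Both genes and Klf4 were the 3 members whose groups did not overlap, beside 4.11% of all genes, and 8 members were lower on all 3 slides, beside 11.8% of all genes. The list's other probes had the sign of the main probe in only 3 of 9, beside 59.55% over all genes.

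Lists of energy metabolism had medians near 0. They were −0.04 for 17 lipid uptake and oxidation genes, −0.07 for 26 oxidative phosphorylation genes and 0.11 for 13 glycolysis genes. Acadm, the medium-chain acyl-CoA dehydrogenase, was detected in all 3 T-bet knockout arrays (5.75, 6.63 and 6.54) and in no control array (4.87, 4.38 and 4.46), at least 2.3-fold higher. It passed the filter through the knockout arrays alone, and in spleen it differed by −1.04. Sterol synthesis genes had a median of 0.33 with 8 of 10 measured above 0, and slide medians of 0.13, 1.13 and 0.56. Idi1, the isomerase of the isoprenoid pathway, read 10.82, 10.97 and 11.01 in T-bet knockouts, against 10.39, 10.32 and 10.41 in controls, a difference of 0.56 without overlap. Srebf1, the sterol regulatory factor, read 7.02, 8.11 and 6.06 in T-bet knockouts, against 6.63, 5.18 and 4.77 in controls, higher on every slide but overlapping.

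Of 17 measured cell cycle genes 12 were above 0, with a median of 0.16. Cenpa, the centromeric histone, read 9.07, 9.83 and 9.33 in T-bet knockouts, against 8.23, 8.10 and 8.0 in controls, a difference of 1.30 (SE 0.37) without overlap, and a second probe gave 0.68. Ribosomal protein genes were below 0 in 12 of 13, with a median of −0.11, and Rpl22 differed by −1.01. Genes of the T cell receptor and its signalling had a median of 0.13, with 13 of 20 above 0, beside 50.8% of all genes. The list's other probes had the sign of the main probe in 8 of 19, beside 59.55% over all genes. Cd247, the zeta chain, read 8.76, 8.82 and 8.27 in T-bet knockouts, against 8.25, 7.21 and 6.77 in controls. It stood apart between groups by little, with a difference of 1.20. Its second probe gave 1.73, but there the groups overlapped. Receptors of the TGF-beta and interleukin 2 families had 9 of 18 above 0 and a median of 0.00.

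**Figure D4:**
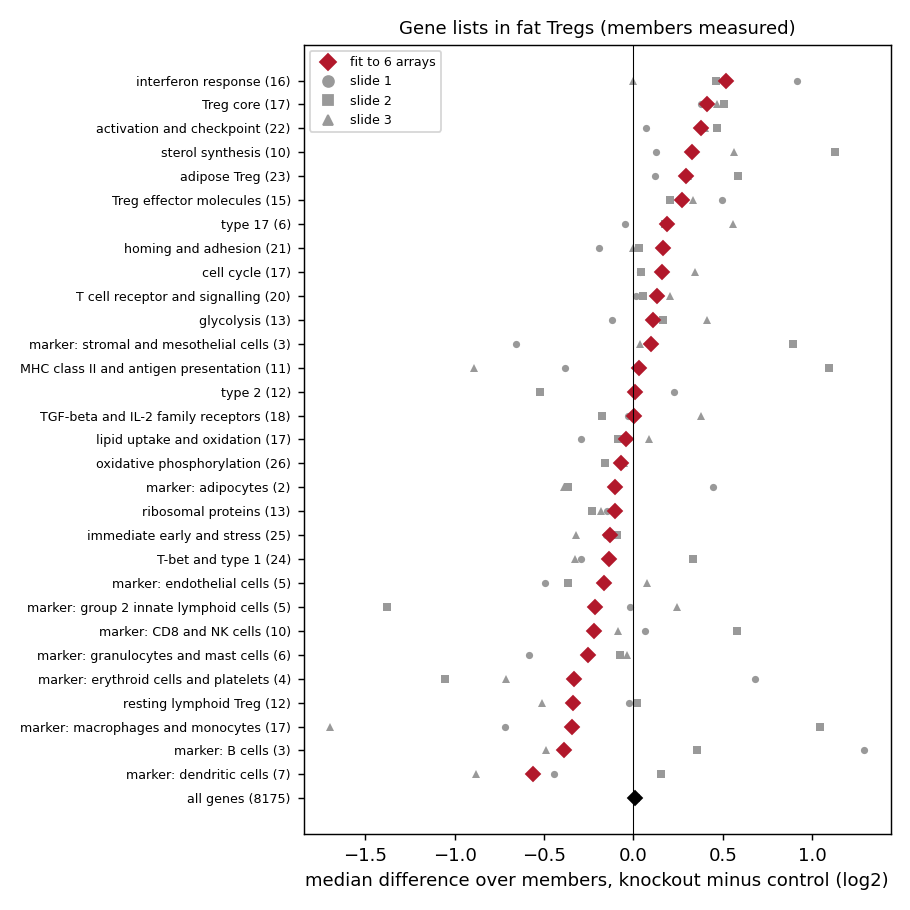
Median log2 difference of T-bet knockout minus control fat Tregs for each gene list from 3 arrays a group (diamonds), with the median on each of the 3 slides as grey symbols, the number of measured members after each name and all genes at the bottom. Core Treg genes lie above 0 on all slides (0.38, 0.51 and 0.47), and macrophage and monocyte markers change side between slides (−0.72, 1.05 and −1.70).

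The largest separate differences fell on genes outside these lists. They were picked for their size, so their values are a description. Slc10a7, a solute carrier family member, was detected in all 3 T-bet knockout arrays (7.91, 6.96 and 7.62) and in no control array (4.79, 4.73 and 4.51). It was at least 5.3-fold higher (limma adjusted p = 0.827), by its brightest probe, but a second Slc10a7 probe was detected in all 3 controls and 1 T-bet knockout array and gave −0.84. Afdn, a scaffold of cell junctions, read 8.36, 6.63 and 7.83 in T-bet knockouts, against 4.65, 4.44 and 4.71 in controls, at least 5.7-fold higher. Spred2, an inhibitor of Ras signalling to MAP kinases, read 8.16, 8.79 and 8.61 in T-bet knockouts, against 7.01, 4.39 and 4.74 in controls, a difference of 3.14 (SE 0.70). Of the 12 higher genes named by the rule, Afdn, Slc10a7, Cd3eap and Abcc5 were detected in no control array by their brightest probes, so the differences of those probes are bounds only. Those probes passed the filter through the knockout arrays alone.

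Of the 12 genes in the other direction, Slc40a1, Pstk and C430049B03Rik were detected in no T-bet knockout array. Their probes passed the filter through the control arrays alone. Slc40a1, the iron exporter ferroportin, was detected in no T-bet knockout array (4.40, 4.86 and 4.44) and in all 3 controls (7.05, 7.39 and 6.48), at least 3.6-fold lower. Alas1, the first enzyme of heme synthesis, read 5.00, 6.16 and 5.28 in T-bet knockouts, against 8.07, 7.43 and 7.67 in controls. The groups lay more than 1 log2 unit apart for both genes, yet limma's adjusted p was 0.827 for each.

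Some genes were measured by several probes, and over all of them 59.55% of the further probes had the sign of the brightest probe. Of the 2981 genes with at least 2 kept probes, 68 had every probe higher on all 3 slides and 87 had every probe lower. Among the 1924 genes with exactly 2 probes, both had the same sign in 1184. Slk, a kinase of the cytoskeleton, read 8.26, 7.87 and 8.51 in T-bet knockouts, against 6.63, 6.81 and 6.63 in controls, with differences of 1.53 and 1.57 by its probes. G2e3, a ubiquitin ligase, differed by 2.16 and 1.95, and Rnaseh2b, a subunit of the enzyme that cuts RNA in RNA and DNA hybrids, by 2.13 and 1.75. On the lower side, Nlrp3, the inflammasome sensor, read 6.65, 6.30 and 4.97 in T-bet knockouts, against 7.33, 8.08 and 7.96 in controls, with differences of −1.81 and −1.83. Kdm1b, a histone demethylase, read 5.49, 6.81 and 6.47 in T-bet knockouts, against 8.08, 8.50 and 7.97 in controls, with differences of −1.92 and −1.67. Slk, Nlrp3 and Kdm1b did not overlap between groups by the brighter probe.

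**Figure D5:**
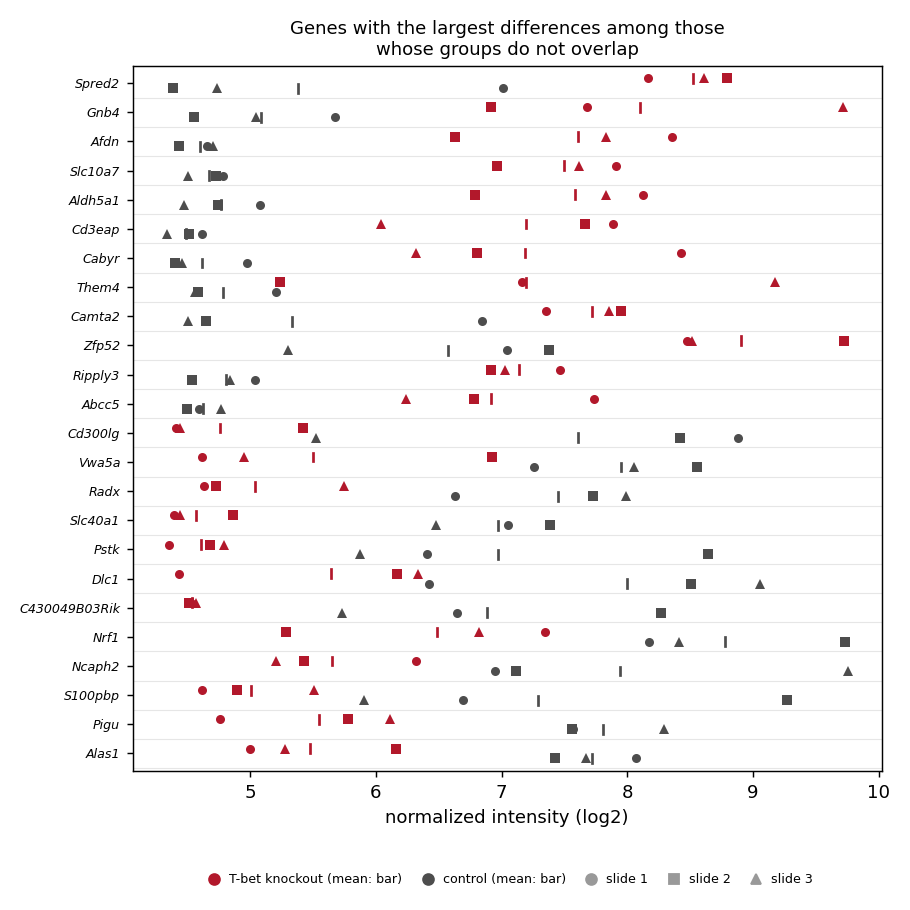
Log2 intensity in each fat array of the genes with the largest non-overlapping differences, the T-bet knockout row above the control row for each gene, with a symbol for each slide and a bar at each group mean. Slc10a7 lies between 6.96 and 7.91 in T-bet knockouts and between 4.51 and 4.79 in controls, and Slc40a1 has the opposite layout.

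Whether the knockout effect in fat was other than that in spleen was tested over the same probes with all 12 arrays. limma called 0 of 15544 probes (0%), the smallest adjusted p was 0.140, and 622 probes (4%) had an unadjusted p below 0.05. The median SE of this difference was 0.688. Among the named genes the smallest adjusted p was 0.397, for Slc10a7 and Acadm. Slc10a7 read 5.36, 5.07 and 5.37 in T-bet knockout spleen arrays and 5.73, 5.05 and 5.04 in control spleen arrays. The brightest probes of both genes were detected in no fat control array, so the size of their excess in fat over spleen is not given. With no call in the test, no gene was shown to respond in fat alone.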

How the data were processed

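Per the file headers, the authors deposited a table of raw bead intensities (a mean per probe, on a linear scale) for 45281 probes. The same deposited table gives each intensity a detection p-value. A further deposited table held intensity values that the authors had normalized, and its ranks matched those of the first table in every array (Spearman correlation 1). GenomeStudio is named in the submitters' processing notes, and its version is not given in the sources used here.

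Background correction of the 12 arrays used the nec function (limma 3.58.1, R 4.3.3; negative controls inferred from the detection p-values, offset 16), followed by joint quantile normalization and log2. Probes with a detection p below 0.05 in at least 3 of the 6 fat arrays were kept. By the platform annotation 34885 probes have 1 gene symbol, 18 several and 10378 none, and of the kept probes 2870 had no single gene and entered the tests unnamed. An update of symbols by Entrez number reached 34807 probes and altered 0 of them. The number of arrays limits the precision.

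limma's lmFit and eBayes (residual degrees of freedom 4, prior 3.45) compared T-bet knockout with control fat arrays, with Benjamini-Hochberg adjustment over all kept probes. An exact permutation test of 3 against 3 arrays cannot go below 0.1 and was not used. The difference between fat and spleen came from a fit to all 12 arrays. The script was tested on simulated data. For a gene whose brightest probe was undetected in all fat arrays of 1 genotype the fold is a bound ("at least"), set by the lowest signal among detected probes of each such array, 4.90 to 5.22 in log2 units. No 2 arrays held identical values. The array names in the labels place same-numbered samples on 1 slide, and the deviations of same-numbered fat arrays from their group means correlated at 0.029, 0.067 and 0.164.

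The 30 gene lists hold 516 genes, of which 348 were measured. Members and lists were drawn up from textbook roles and chosen with earlier results of these data known. Genes named are Tbx21, Foxp3, the 12 largest non-overlapping differences each way detected in all arrays of the higher group, 6 genes each way whose probes (2 or more) keep 1 sign on all slides, and the 2 members of each list with the smallest unadjusted p. Other members are given as examples of their lists and were picked with their values in view.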

Additional observations from a re-analysis of the deposited data

How the results depend on the processing

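The count of 0 called probes was the same under 20 of 21 alternatives, and the fit to all 12 arrays called 2, Slc10a7 (limma adjusted p = 0.0213, its probe undetected in fat controls) and 1 probe with no gene symbol (−2.87, SE 0.35). Probes at an unadjusted p below 0.05 numbered 368 when detection was required in all 6 fat arrays, 1448 with no filter, 1122 in the fit to all 12 arrays and 378 with 1 probe a gene, beside 725, and these alternatives test other numbers of probes or arrays. Leaving out 1 array at a time gave 663 to 863. With the slide as a replicate block the count was 861 with 0 called, and no call changed. The test between fat and spleen called 0 under every alternative run. Of 1860 differences of 91 named genes 1842 kept their direction and 18 reversed, in 9 genes, and the cause was not tested. Pnpla2 read 0.082 under median scaling and 0.43 with array weights, and Foxp3 −0.48 as the median of its probes. With 1 array left out, Tbx21 ranged from −0.20 to 1.11, Fcer2a from −0.81 to 0.045, Fabp4 from −1.30 to 0.94, Pnpla2 from −0.68 to 0.43, Krt19 from −1.08 to 0.059, Sparc from −0.49 to 1.51, Esam from −1.92 to 0.16 and Hba-a1 from −1.30 to 0.45. Of 629 list medians compared 32 moved by more than the spread between slides. The counts of members above 0 were followed after seeing the data. Genes near background have compressed differences.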

Other observations

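Fabp4 and Sparc, genes of other tissue cells, varied more between slides than between genotypes. Fabp4, the fatty acid binding protein of adipocytes, read 9.64, 10.94 and 6.98 in T-bet knockout arrays 1, 2 and 3, against 9.60, 11.36 and 7.09 in control arrays 1, 2 and 3, so that both genotypes were highest on slide 2 and lowest on slide 3. Sparc, a matrix protein of stromal cells, read 6.95, 9.44 and 6.02 in T-bet knockouts, against 7.37, 8.54 and 4.55 in controls. For Sparc too, slide 2 was the highest and slide 3 the lowest in both genotypes. Other markers had other layouts. Pecam1, an endothelial adhesion molecule, read 7.66, 6.85 and 7.22 in T-bet knockouts, against 5.79, 7.51 and 5.47 in controls. Pnpla2, a triglyceride lipase, read 5.77, 6.83 and 5.84 in T-bet knockouts, against 4.92, 7.14 and 6.51 in controls, lowest on slide 1 in both. The adipocyte genes Plin1, Plin4 and Retn were undetected in all fat arrays. In spleen Fabp4 read 4.73, 4.48 and 4.55 in T-bet knockouts, against 4.36, 4.41 and 4.84 in controls.

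Among genes of the lymphocytes themselves Ccr4, the chemokine receptor of skin and type 2 homing, had a like layout, with 8.61, 8.68 and 6.86 in T-bet knockouts against 8.35, 8.39 and 6.19 in controls. Id2, an inhibitor of E proteins, read 12.54, 12.15 and 11.60 in T-bet knockouts, against 12.32, 12.31 and 10.78 in controls. Both were lowest on slide 3 in both genotypes, as was Tbx21. These genes were picked after their values were seen, and whether a slide stands for a shared day, litter or hybridization is not given in the labels.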
